A study of Bos taurus with 27 samples.

Results

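The genes described here belong to the 2 routes by which cells show peptides to T cells, measured in the colon of newborn Holstein calves whose first colostrum meal was given at different times. The list held 10 genes, 7 of the class I route (B2M, TAP1, TAP2, TAPBP, PSMB8, PSMB9 and NLRC5) and 3 of the class II route (CD74, BOLA-DRA and CIITA). Members were chosen by symbol, and a symbol was kept only where the naming tables at hand paired it with a single Ensembl identifier. This left 3 of the 10: TAPBP (ENSBTAG00000016828), CD74 (ENSBTAG00000015228) and BOLA-DRA (ENSBTAG00000010645). These are 3 of the 24616 genes in the count table, and all 3 passed the filter that left 13943 genes for testing. TAP1, TAP2, PSMB8, PSMB9, NLRC5 and CIITA had no identifier in those tables and were not analysed here. The copy of a naming table at hand was cut short, so their absence does not show that they were not expressed. B2M was dropped as well, since the tables pair the identifier that carries the name beta-2-microglobulin (ENSBTAG00000012330) with LOC783680, and RefSeq (ARS-UCD2.0) lists B2M and LOC783680 as separate neighbouring genes. LOC783680 is therefore given under its own symbol, beside the members, and was added after the identifiers had been matched.

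Class I molecules sit on nearly all nucleated cells and show peptides cut by the proteasome in the cytosol. The peptides are pumped into the endoplasmic reticulum by the TAP transporter and fitted into class I molecules by a loading complex, in which tapasin, the product of TAPBP, tethers class I molecules to TAP with the help of calreticulin and PDIA3. Class II molecules show peptides from material that cells have taken up, and they are made mainly by dendritic cells, macrophages and B cells, and in the gut also by epithelial cells under interferon gamma. BOLA-DRA encodes the alpha chain of the bovine class II molecule DR, and CD74 encodes the invariant chain, which blocks the groove of new class II molecules and guides them to the endosome.

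The colon of 27 newborn male Holstein calves was sampled 51 h after birth, 9 calves per treatment. The first colostrum was fed immediately after birth (TRT0), at 6 h after birth (TRT6) or at 12 h after birth (TRT12), by esophageal tube. In all 3 treatments milk replacer began 12 h after the colostrum meal and was then given every 6 h. Milk feeding thus started later where colostrum was later. Because every calf was sampled at the same age, age at the colostrum meal, time since the meal and length of milk feeding cannot be told apart. Each treatment held calves of primiparous and of multiparous dams, a division that the labels used for grouping do not give, so dam parity is part of the spread within each treatment here. Calves are numbered from 1 to 9 within each treatment in the order of their records, and the numbers pair no calves between treatments.

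The reads counted on genes summed to between 1163791 and 4202593 per calf (median 2215402), and levels are given as counts per 1000000 counts of the calf (CPM). The calves were sequenced in 3 lanes of 11, 11 and 5 calves, spread unevenly over the treatments (2, 5 and 4 calves of TRT0, TRT6 and TRT12 in lane 1, 5, 3 and 3 in lane 2, and 2, 1 and 2 in lane 3). Of the colon markers, CA2 lay between 33.2 and 251 CPM in the calves, while the 3 villus markers chosen for contrast had no identifier. The tissue was a mixture of cell types. Summed over the matched markers of each type, smooth muscle (DES, MYH11, ACTG2) gave a median of 7960 CPM in TRT0, epithelium (EPCAM, CDH1, KRT8, KRT18) 1278 CPM and leukocytes (PTPRC, LCP1) 130.0 CPM. In such tissue, fewer cells of a type and less RNA per cell cannot be told apart.

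TAPBP, the class I member, had its lowest mean in TRT0 and its highest in TRT12. In TRT0 the 9 calves ranged from 140.2 to 235 CPM with a median of 186, in TRT6 from 133 to 249.8 CPM with a median of 208, and in TRT12 from 176 to 266 CPM with a median of 245. The ranges overlapped, although 5 of the 9 TRT12 calves lay above the highest TRT0 calf and 3 of the 9 TRT0 calves lay below the lowest TRT12 calf. Those 5 calves had the smallest library totals of TRT12 (1314579 to 2246958 counts), and the lowest TRT12 calf had the largest (4202593 counts). In TRT6 the calf with the largest total (2949345 counts) was among the higher ones, at 240.7 CPM. A relation of TAPBP to depth was not tested. Mean TAPBP was 188 ± 31.9 CPM for TRT0, 201 ± 37.9 CPM for TRT6 and 230.2 ± 36.6 CPM for TRT12 (SD, n = 9 each), and each step between neighbours in this order was smaller than the spread between calves. The log2 fold change was 0.32 in TRT12 vs. TRT0 (SE 0.11, 95% interval 0.10 to 0.55), a 1.25-fold difference with an adjusted p of 0.404 in the edgeR quasi-likelihood test. For TRT6 vs. TRT0 it was 0.13 (SE 0.11) and for TRT12 vs. TRT6 0.19 (SE 0.11), with adjusted p-values close to 1 in both. TAPBP therefore did not pass the threshold of an adjusted p of 0.10 in any contrast, and 1.48% of the genes tested had a smaller unadjusted p in TRT12 vs. TRT0. Within lanes, the TAPBP means of TRT0 and TRT12 were 170.4 and 207 CPM in lane 1, 206 and 242 CPM in lane 2, and 161 and 259 CPM in lane 3, so TRT12 was higher in each lane.

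CD74 showed no such order. It ranged from 486 to 1008 CPM in TRT0 (median 653), from 427 to 1168 CPM in TRT6 (median 637) and from 386 to 1155 CPM in TRT12 (median 586). All 3 treatments spanned nearly the same range, each with a single calf near or above 1008 CPM. The means were 666 ± 161, 662 ± 211 and 639.8 ± 211 CPM in TRT0, TRT6 and TRT12 (SD, n = 9 each), which differed by less than the spread between calves. The log2 fold change of CD74 was -0.03 in TRT12 vs. TRT0 (SE 0.15, 95% interval -0.34 to 0.28, adjusted p 0.969 in edgeR), 0.01 for TRT6 vs. TRT0 and -0.04 for TRT12 vs. TRT6 (SE 0.15 in both).

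BOLA-DRA followed CD74. It ranged from 170.1 to 337 CPM in TRT0 (median 212), from 138 to 371 CPM in TRT6 (median 208) and from 162 to 410.0 CPM in TRT12 (median 224). The ranges overlapped almost wholly, and the means of 230.3 ± 50.002, 219.9 ± 69.4 and 234 ± 73.6 CPM (SD, n = 9 each) differed by less than the spread between calves. The log2 fold change of BOLA-DRA was 0.05 in TRT12 vs. TRT0 (SE 0.16, 95% interval -0.26 to 0.37, adjusted p 0.949 in edgeR), -0.05 for TRT6 vs. TRT0 and 0.11 for TRT12 vs. TRT6 (SE 0.16 in both). The intervals of both class II members in TRT12 vs. TRT0 reach to either side of 0, so a difference of the size seen for TAPBP is not excluded for BOLA-DRA and lies just outside the interval of CD74.

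**Figure D1:**
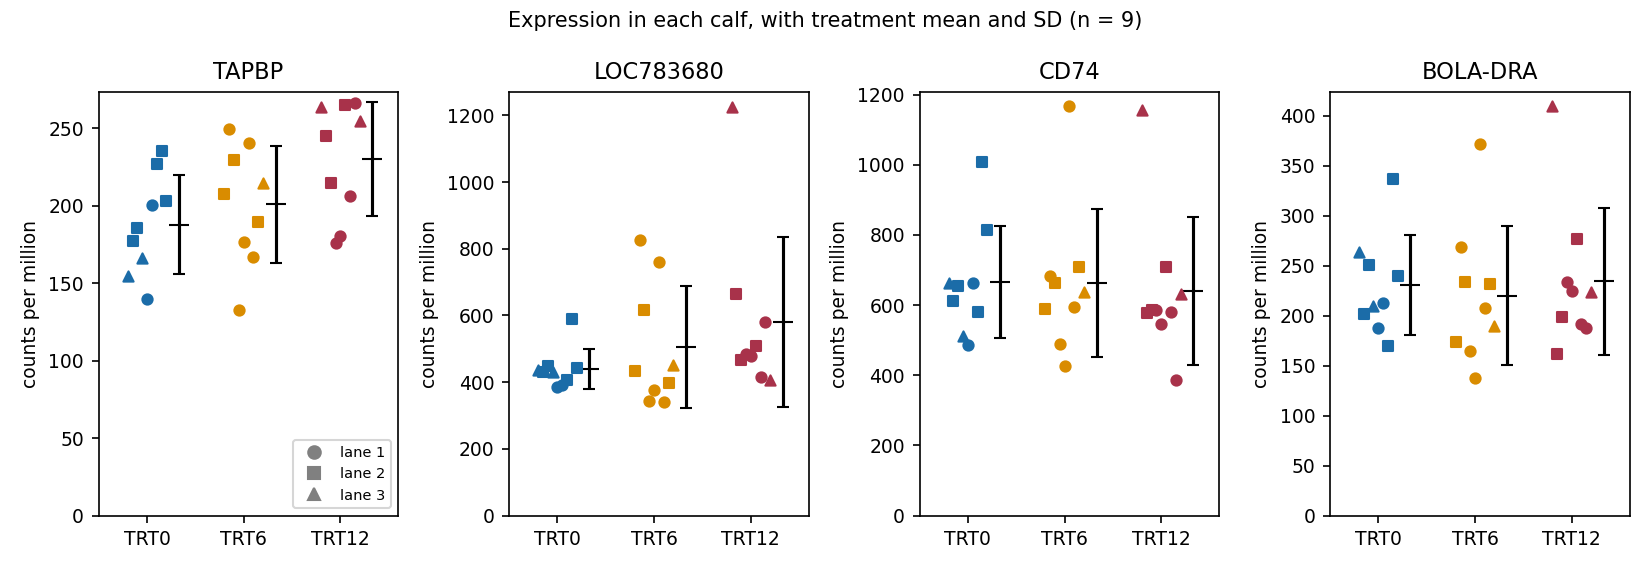
Level of TAPBP, LOC783680, CD74 and BOLA-DRA in CPM (vertical axes, from 0) in each calf by treatment, with the sequencing lane as the marker shape and the mean ± SD of 9 calves as the black bar. TAPBP means step from 188 to 230.2 CPM, with ranges that overlap between treatments. The ranges of CD74 and BOLA-DRA overlap as well, with the highest calf at 1008 to 1168 CPM of CD74 in each treatment.

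Across the table, edgeR called 0 of the 13943 genes at an adjusted p of 0.10 and a fold change of 1.2 in each of the 3 contrasts (0% called), and 0 of the 3 members were called. With the contrasts in the order TRT6 vs. TRT0, TRT12 vs. TRT0 and TRT12 vs. TRT6, DESeq2 called 0, 38 and 2 genes, and the likelihood ratio test of edgeR called 0, 1 and 0, none of them a member. At an unadjusted p under 0.05 the quasi-likelihood test gave 452, 1342 and 455 genes (3.24%, 9.62% and 3.26% of those tested). Of the members, 1 of 3 was among them, TAPBP in TRT12 vs. TRT0, where 5.3% of all genes tested were higher at that level and 4.32% lower. In TRT6 vs. TRT0, 1.57% were higher and 1.67% lower, and in TRT12 vs. TRT6 1.49% and 1.77%, with 0 of the 3 members among them in both contrasts. Differences between treatment means made up 25.9% of the variance of log2 CPM in TAPBP, 0.739% in CD74 and 1.35% in BOLA-DRA. Those between lane means made up 2.37%, 8.01% and 8.86%. With 3 groups such shares lie above 0 even without an effect, and the shares of all genes tested were not computed.

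The members sit among other genes of the same routes, taken from a fixed list. Of 12 further class I genes, 8 had an identifier and all 8 were tested. They were PSME1 and PSME2 (the proteasome activator induced by interferon gamma), ERAP1 (which trims peptides in the endoplasmic reticulum), PDIA3, CALR and CANX (chaperones of class I folding and loading), the class I heavy chain BOLA, and the transcription factor IRF1. In TRT12 vs. TRT0, 0 of the 8 passed the adjusted threshold, and 6 of 8 were higher and 0 lower at an unadjusted p under 0.05, against 5.3% of all genes tested that were higher. Their median log2 fold change was 0.43, against -0.01 over all genes tested, and their adjusted p-values lay between 0.404 and 0.910 in edgeR. In TRT6 vs. TRT0 none of the 8 reached an unadjusted p of 0.05 (median log2 fold change 0.15), against 3.24% of all genes tested. In TRT12 vs. TRT6 the count was also 0 of 8, against 3.26% of all genes tested, and it became 5 without TRT6 calf 2, 3 without TRT12 calf 3 and 2 without TRT12 calf 4. These genes are not independent of each other or of TAPBP, as the correlations across calves given further on show, so the 6 are not 6 separate observations. The 8 genes were also abundant, with a mean CPM above that of 81.9% (PSME2) to 99.5% (CANX) of the genes tested. The share among genes of like level was not computed.

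Among the chaperones, CALR, calreticulin, ranged from 489 to 752 CPM in TRT0 (median 595), from 363 to 1070.5 CPM in TRT6 (median 649) and from 467 to 1117 CPM in TRT12 (median 864), with a log2 fold change of 0.46 in TRT12 vs. TRT0 (SE 0.16, edgeR adjusted p 0.414). In that comparison 6 of the 9 TRT12 calves lay above the highest TRT0 calf and 1 lay below the lowest. CANX, calnexin, had means of 646 ± 53.6, 689 ± 122 and 807 ± 119 CPM in TRT0, TRT6 and TRT12 (SD, n = 9 each) and a log2 fold change of 0.34 in TRT12 vs. TRT0 (SE 0.12, edgeR adjusted p 0.414). TRT12 calves 1, 2, 6, 8 and 9, with the smallest library totals of TRT12, had 873 to 930 CPM of CANX. The other TRT12 calves had 613 to 752 CPM. PDIA3, the disulfide isomerase of the loading complex, had means of 373 ± 56.5, 400.0 ± 129 and 499 ± 108 CPM and a log2 fold change of 0.43 in TRT12 vs. TRT0 (SE 0.16). These chaperones also fold many other glycoproteins.

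PSME1 had means of 70.4 ± 7.01, 79.8 ± 24.3 and 93.6 ± 24.1 CPM in TRT0, TRT6 and TRT12 (SD, n = 9 each), and in TRT12 vs. TRT0 its log2 fold change was 0.42 (SE 0.14, edgeR adjusted p 0.404). PSME2, its partner subunit, had a log2 fold change of 0.43 (SE 0.18) and IRF1 0.43 (SE 0.21) in the same contrast. A single TRT12 calf bore on these values. Without TRT12 calf 1, 4 of the 8 class I genes stayed at an unadjusted p under 0.05, and the log2 fold changes in TRT12 vs. TRT0 became 0.33 for PSME1, 0.30 for PSME2 and 0.21 for IRF1, while those of CALR (0.44), CANX (0.34), PDIA3 (0.41) and TAPBP (0.31) moved little. Without TRT0 calf 3 the count was also 4. ERAP1 (0.11, SE 0.19) and BOLA (0.36, SE 0.21) did not reach an unadjusted p of 0.05, and without TRT12 calf 1, the highest calf in both, they were -0.03 and 0.24. BOLA has near-identical relatives in the genome and its counts are uncertain.

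LOC783680, named beta-2-microglobulin after the light chain of every class I molecule, averaged 441 ± 59.6 CPM for TRT0, 506 ± 184 CPM for TRT6 and 581 ± 255 CPM for TRT12 (SD, n = 9 each). Its log2 fold change in TRT12 vs. TRT0 was 0.42 (SE 0.18, edgeR adjusted p 0.456), and 0.23 without TRT12 calf 1 (edgeR adjusted p 0.655). That calf, the highest, stood at 1225 CPM against a TRT12 median of 484 CPM. How far reads of B2M itself enter or leave this count is not known.

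Of 14 further class II genes, 3 had an identifier. BOLA-DRB3, the main beta chain paired with BOLA-DRA, had a log2 fold change of 0.10 in TRT12 vs. TRT0 (SE 0.21), BOLA-DQA5, an alpha chain of the DQ molecule, 0.41 (SE 0.42, and 0.06 without TRT12 calf 4), and CTSS, the protease that cuts the invariant chain, 0.17 (SE 0.12). None of the 3 reached an unadjusted p of 0.05 in any contrast with all calves (1 did in TRT12 vs. TRT0 without TRT12 calf 7), and their adjusted p-values in TRT12 vs. TRT0 lay between 0.690 and 0.922 in edgeR. BOLA-DQA5 was low and ranged from 0 to 23.6 CPM over the 27 calves, and both BOLA-DRB3 and BOLA-DQA5 have near-identical relatives, so their counts are uncertain. Of the interferon genes matched (IFIT2, IFNGR1 and IFNGR2) and the constitutive proteasome subunits matched (PSMB5 and PSMB7), 0 of 3 and 0 of 2 reached an unadjusted p of 0.05 in TRT12 vs. TRT0. Over all genes tested the share was 9.62%, so counts of 0 among 2 or 3 genes, the class II genes included, do not set these lists apart. The median log2 fold changes of these 2 lists were 0.12 and 0.20.

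**Figure D2:**
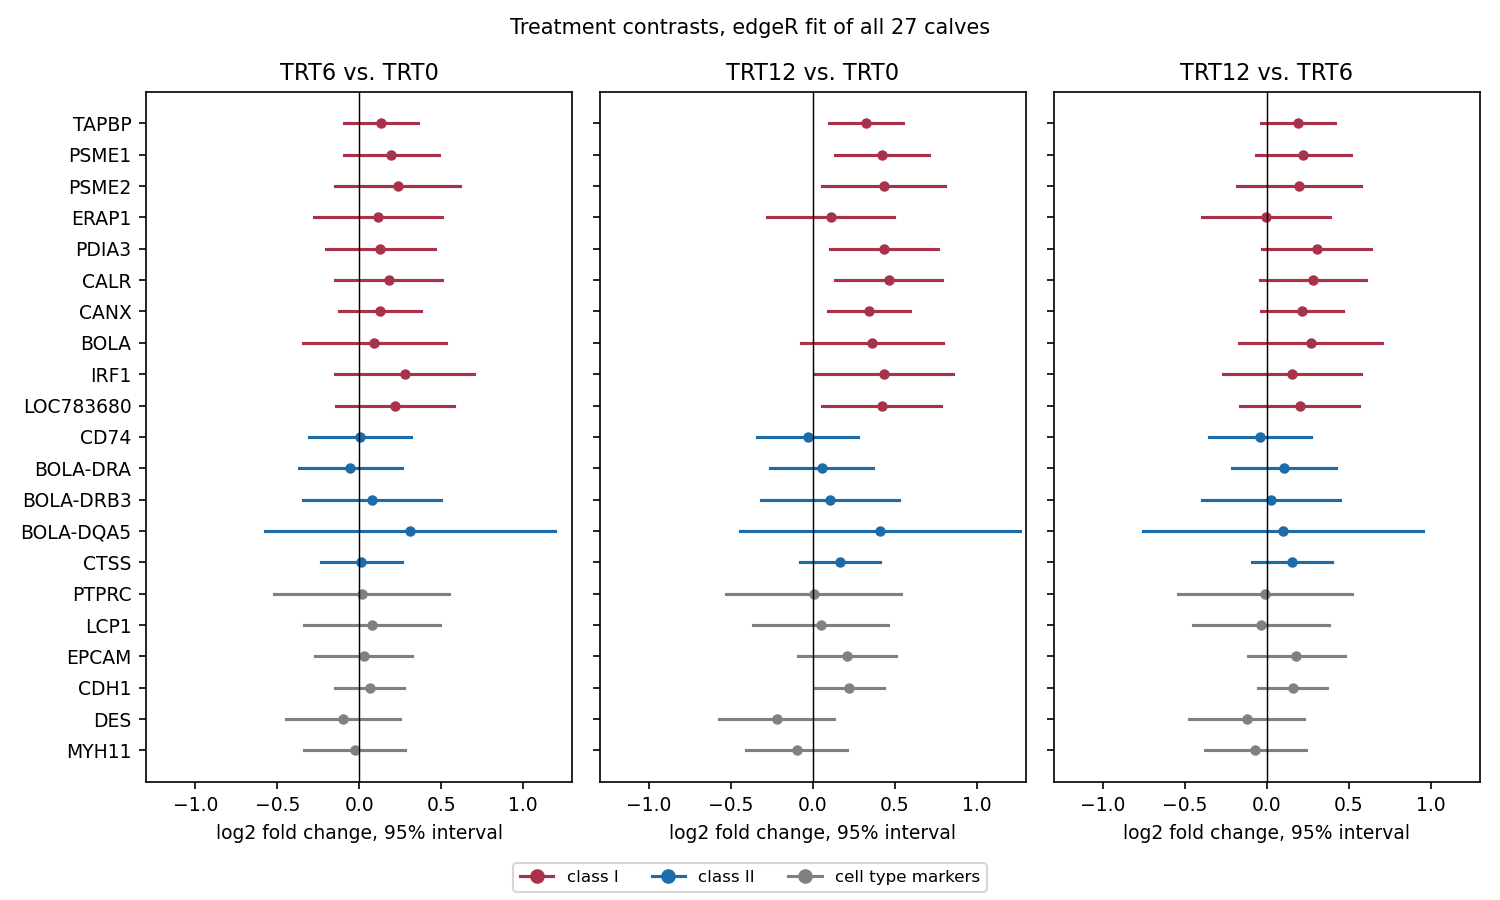
Log2 fold change (point) and 95% interval (line) of the members, the other class I (red) and class II (blue) genes and cell type markers (grey) in the 3 treatment contrasts, from the edgeR fit of all 27 calves. In TRT12 vs. TRT0 the intervals of TAPBP, LOC783680 and 6 of the 8 listed class I genes lie above 0 with all calves, while those of CD74 and BOLA-DRA are centred near 0. That of LOC783680 rests on TRT12 calf 1, and without this calf 4 of the 8 class I genes stayed at an unadjusted edgeR p under 0.05. No gene shown passed the adjusted threshold.

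Cell type markers were read in the same contrast. CDH1, the cadherin of epithelial cells, was the only one of 4 epithelial markers at an unadjusted p under 0.05 in TRT12 vs. TRT0 (log2 fold change 0.22, SE 0.10), and the median of the 4 was 0.22. The colon epithelial enzyme CA2 had a log2 fold change of 0.65 (SE 0.26, edgeR adjusted p 0.440), which was 0.33 without TRT12 calf 7, at 251 CPM. The leukocyte markers PTPRC (0.00, SE 0.26) and LCP1 (0.05) had log2 fold changes near 0 (-0.28 and -0.17 without TRT12 calf 1), and 0 of 3 smooth muscle markers reached that p (median -0.10). The summed epithelial markers ranged from 985 to 1478 CPM in TRT0 and from 1033 to 1837 CPM in TRT12. Their part in the TAPBP and class I values was not tested.

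The ratio of members within a calf, compared after the levels had been seen, does not depend on the total of the library. The log2 ratio of TAPBP to CD74 averaged -1.81 ± 0.24 for TRT0, -1.69 ± 0.31 for TRT6 and -1.43 ± 0.43 for TRT12 (SD, n = 9 each). TRT12 exceeded TRT0 by 0.38, with an exact two-sided permutation p of 0.0283 and an adjusted p of 0.255 over the 9 ratio comparisons, so the difference failed the correction. Within lanes this difference was 0.42, 0.44 and 0.14 in lanes 1, 2 and 3. The log2 ratio of TAPBP to BOLA-DRA differed by 0.29 between TRT12 and TRT0 (exact permutation p 0.113, adjusted p 0.339). The ratio of CD74 to BOLA-DRA was the tightest of the 3, at 1.52 ± 0.19 on the log2 scale over 27 calves (range 1.04 to 1.83), and it differed by -0.08 between TRT12 and TRT0 (exact permutation p 0.414, adjusted p 0.466).

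Most of the variation in the class II members lay between calves of the same treatment. Their coefficients of variation over 27 calves were 28.7% for CD74 and 27.6% for BOLA-DRA, against 18.7% for TAPBP. These were larger than those of 80.2%, 90.2% and 67.5% of the genes tested within 2-fold of the same mean level. The same 3 calves were highest in both class II genes. TRT6 calf 6 had 1168 CPM of CD74 and 371 CPM of BOLA-DRA, TRT12 calf 1 had 1155 and 410.0 CPM, and TRT0 calf 8 had 1008 and 337 CPM. They came from 3 different treatments and 3 different lanes.

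Over the 27 calves, CD74 and BOLA-DRA varied together, with a Pearson r of 0.839 on log2 CPM (permutation p 1e-05, the smallest that 100000 permutations can give, adjusted p 3e-05 over the 3 member pairs) and a Spearman rho of 0.795 (adjusted p 3e-05). The r was 0.743 without the 2 calves farthest from the median of CD74, and 0.835 and 0.876 within lanes 1 and 2. TAPBP was less tied to either. Its r was 0.26 with CD74 (permutation p 0.191, rho 0.373) and 0.291 with BOLA-DRA (permutation p 0.142, rho 0.230), both with an adjusted p of 0.191, and within lanes 1 and 2 the r was 0.09 and 0.29 with CD74 and 0.39 and 0.21 with BOLA-DRA. Without the 2 calves farthest from the TAPBP median these were 0.424 with CD74 (permutation p 0.0345) and 0.288 with BOLA-DRA (permutation p 0.165). The r of TAPBP and CD74 was 0.471 without TRT12 calf 8 alone (adjusted permutation p 0.0224), and without TMM factors it was 0.424 and that of TAPBP and BOLA-DRA 0.385 (adjusted permutation p 0.0408 and 0.0468). The relation of TAPBP to CD74 thus depends on 1 calf and on the scaling, and that to BOLA-DRA on the scaling. Lane 3, with 5 calves, was too small for a value of its own. Whether these correlations differ from each other was not tested.

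**Figure D3:**
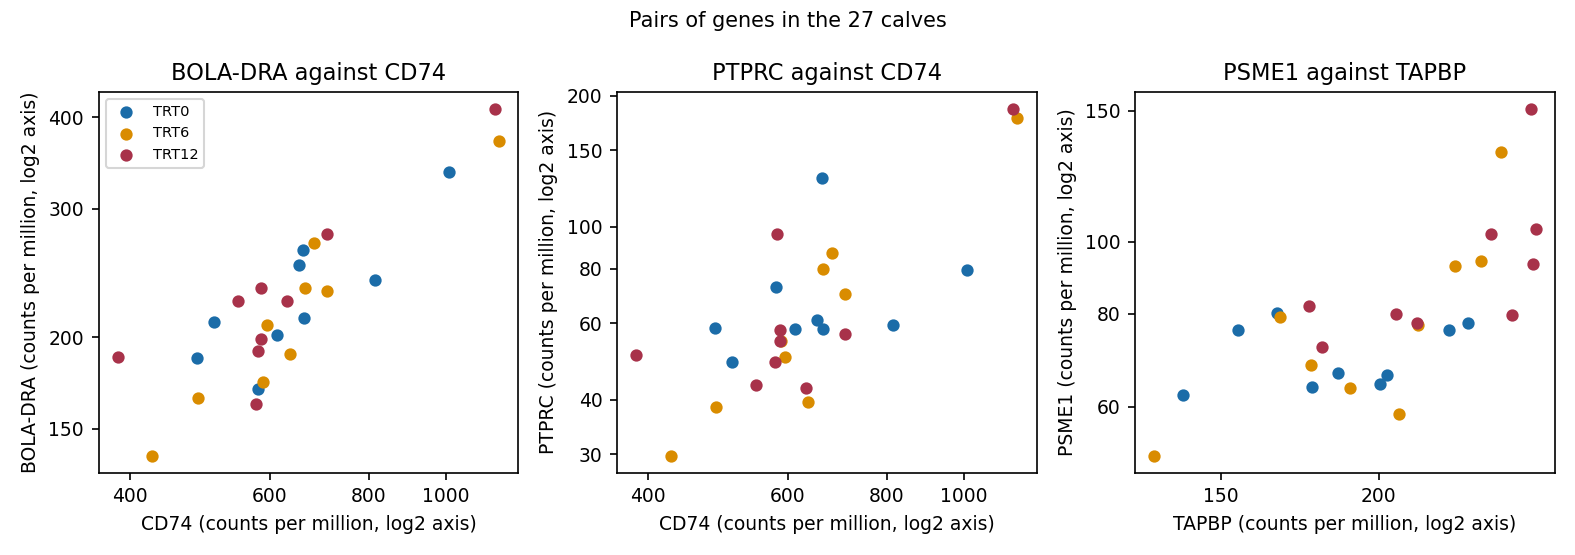
BOLA-DRA against CD74, PTPRC against CD74, and PSME1 against TAPBP in each of the 27 calves, in CPM on log2 axes, coloured by treatment. BOLA-DRA follows CD74 along the whole range (r 0.839), while the relation of PTPRC to CD74 leans on the 2 calves at the upper right.

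Each member was also set against 1 marker each of leukocytes (PTPRC, the common leukocyte antigen), epithelium (EPCAM) and muscle (DES, desmin), 9 pairs in all. CD74 had an r of 0.651 with PTPRC (permutation p 0.00047, adjusted p 0.00212, rho 0.486), and BOLA-DRA had an r of 0.669 (permutation p 0.00015, adjusted p 0.00135, rho 0.499). Without the 2 calves farthest from the median these fell to 0.331 (permutation p 0.106) and 0.438 (permutation p 0.0270), so the relation of CD74 to PTPRC rests on TRT6 calf 6 and TRT12 calf 1, which had 178 and 186 CPM of PTPRC against a range of 29.8 to 129.8 CPM in the other 25 calves. Within lanes 1 and 2 the r with PTPRC was 0.726 and 0.466 for CD74, and 0.692 and 0.469 for BOLA-DRA. TAPBP had an r of 0.09 with PTPRC (permutation p 0.670, adjusted p 0.741).

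With EPCAM, TAPBP had an r of 0.447 (permutation p 0.0187, adjusted p 0.0420). The rho was 0.394, with an adjusted permutation p of 0.0958. The r was 0.297 without the 2 calves farthest from the TAPBP median, and 0.545 and 0.702 within lanes 1 and 2. EPCAM was number 1412 of the 13942 other genes tested in r with TAPBP. PTPRC was number 84 for CD74 and number 21 for BOLA-DRA. CD74 and BOLA-DRA had an r of -0.296 and -0.07 with EPCAM, with adjusted p-values of 0.203 and 0.741 (permutation). BOLA-DRA had an r of -0.484 with DES (permutation p 0.0103, adjusted p 0.0308, rho -0.487), which was -0.380 without the 2 farthest calves, -0.759 in lane 1 and -0.182 in lane 2. Both relations were thus weaker without 2 calves and no longer had a permutation p under 0.05 (0.148 and 0.0614). Leaving out single calves also took the adjusted p past 0.05, with the r of TAPBP and EPCAM at its lowest, 0.336, without TRT12 calf 8 and that of BOLA-DRA and DES at its weakest, -0.407, without TRT6 calf 6.

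The members were then set against 12 other antigen presentation genes, 36 pairs, a set of comparisons added after the levels had been seen. TAPBP had a positive r with all 12, and 7 of them had an adjusted permutation p under 0.05. The highest were CALR at 0.726 and PSME1 at 0.706 (adjusted p 0.00084 in both), PSME2 at 0.69, CANX at 0.657, LOC783680 at 0.627 and PDIA3 at 0.62, followed by BOLA at 0.456. Without the 2 calves farthest from the TAPBP median these were 0.643, 0.626, 0.634, 0.581, 0.591, 0.54 and 0.441. By Spearman rho, PDIA3 and BOLA did not pass, each with an adjusted permutation p of 0.053. In lanes 1 and 2 the r of TAPBP with PSME1 was 0.859 and 0.821, and that with CALR was 0.849 and 0.659. The r of TAPBP with IRF1 was 0.383 (adjusted permutation p 0.109). Among the 13942 other genes tested, BOLA, the lowest of the 7, was number 1347 in r with TAPBP and PDIA3 number 352. The median r with TAPBP over these genes was -0.005.

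CD74 had an adjusted permutation p under 0.05 with 2 of the 12. They were LOC783680 (r 0.53, number 251 of the 13942 other genes tested) and BOLA-DRB3 (r 0.509, number 316). The first fell to 0.196 without the 2 calves farthest from the CD74 median and rests on them, and the second was 0.526. By Spearman rho, the adjusted permutation p was 0.107 for the first and 0.00738 for the second. BOLA-DRA reached it with 4 of the 12. These were BOLA-DRB3 at 0.64 and LOC783680 at 0.632 (adjusted p 0.00206 in both), PSME1 at 0.487 and CTSS at 0.485. In r with BOLA-DRA they were numbers 38, 43, 312 and 319 of the 13942 other genes tested. Without the 2 calves farthest from the BOLA-DRA median they were 0.662, 0.408, 0.326 and 0.501. The permutation p was then 0.00033 for BOLA-DRB3, 0.0416 for LOC783680, 0.0111 for CTSS and 0.110 for PSME1. By Spearman rho over the 27 calves, PSME1 had an adjusted permutation p of 0.107 with BOLA-DRA.

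**Figure D4:**
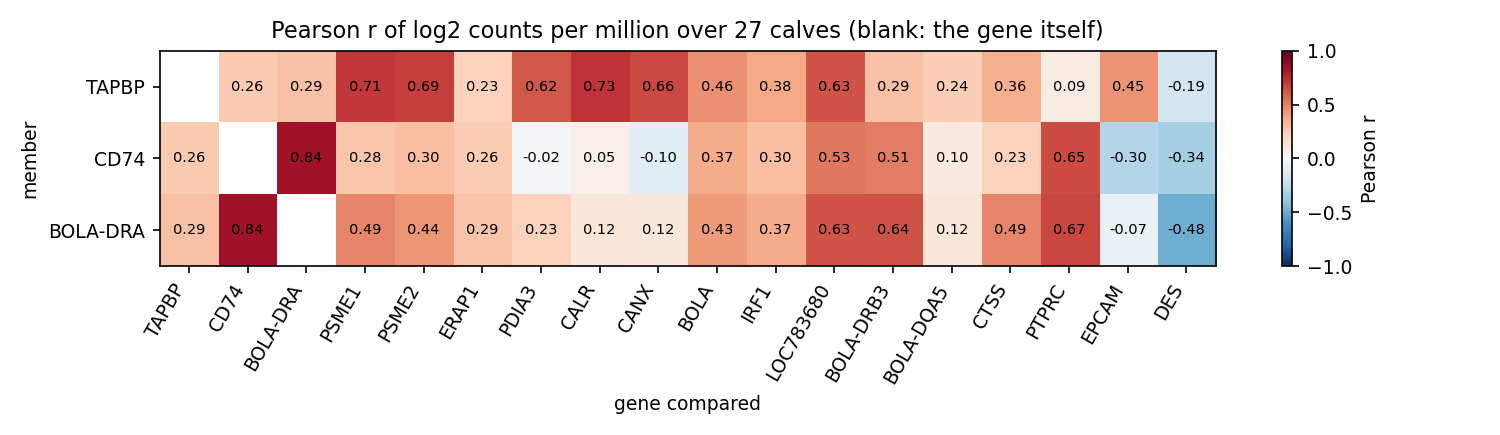
Pearson r of log2 CPM over 27 calves between the 3 members (vertical) and the other antigen presentation genes and 3 cell type markers (horizontal), on a colour scale from -1 to 1. TAPBP is highest with CALR (0.73) and PSME1 (0.71), and CD74 and BOLA-DRA with each other (0.84).

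TRT12 calf 1 was among the 3 highest calves in 13 of the 15 antigen presentation genes described (3 members, 8 class I genes, 3 class II genes and LOC783680) and the highest in 7 of them. It had 151 CPM of PSME1 against a TRT12 median of 81.9 CPM. This calf was also the highest in PTPRC, LCP1 and IFIT2, and its total of 1314579 counts was the smallest of TRT12. TRT6 calf 2, with a total of 1264884 counts, was among the 3 highest in 8 of the 15, and TRT6 calf 6, highest in CD74, in 3. High values in class I and class II genes thus fell on partly different calves. How often these calves rank so high over all genes tested was not computed.

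Over the other 13942 genes tested, the genes with the highest r with TAPBP across the 27 calves were COX5A (0.860), a subunit of cytochrome c oxidase, EZR (0.831), ezrin, which links actin to the membrane of microvilli, and HMGA1 (0.825), a chromatin protein. CALR was number 55 in that order and PSME1 number 91. For CD74 they were ENSBTAG00000010161 (0.86), BOLA-DRA (0.839) and LAPTM5 (0.813), a lysosomal membrane protein of blood cells. For BOLA-DRA they were ENSBTAG00000030845 (0.861), CD74 (0.839) and ENSBTAG00000017863 (0.778). The identifiers without a symbol are not named in the tables used here. These values describe likeness across the same libraries, in which all genes share the depth and the mixture of cells of each calf.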

How the data were processed

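RNA from the colon of 27 calves was sequenced in 3 lanes, read from the library names. Per the study's methods, reads were aligned to UMD 3.1 with TopHat 2.1.1, sorted with SAMtools 1.4 and counted with HTSeq, where a read that fell in several genes was dropped. The authors deposited the raw count of reads per Ensembl gene, with no normalization. The strand setting is not given in the sources used here.

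Genes that reached 1 CPM in 5 or more of the 9 calves of every treatment were tested with the quasi-likelihood test of edgeR 4.0.16 (R 4.3.3) on counts with TMM factors (0.886 to 1.15), in a fit of all 27 calves with treatment alone, and called at a Benjamini-Hochberg adjusted p of 0.10 and a fold change of 1.2. Dam parity was planned as a term, with contrasts within parity and an interaction, but it is given neither by the labels used for grouping nor by the deposited columns, so these were not run. The planned promoter motifs were not run either, since no sequence was at hand. Correlations used log2 CPM (TMM library sizes, prior count 2) with 100000 permutations, ratios used exact permutation tests, and all tests were two-sided. These steps used Python 3.11.15, numpy 2.4.6, scipy 1.17.1, pandas 2.3.3 and matplotlib 3.10.9. No 2 calves had identical counts among 351 pairs (lowest chi-square per degree of freedom 2.87), so each was kept. The test was checked on simulated counts.

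Genes named are the members, the genes of fixed lists with an unadjusted p under 0.05 in a treatment contrast, and the 3 genes nearest each member. Some listed genes are not reported here and were left out of every list count. Other genes of the lists were named after their values were seen. Symbols came from the study's tables of core genes (at least 1 CPM in all calves) and module genes. The copy of the core gene table at hand was cut short, and 4046 identifiers were paired with a symbol. The members and lists were chosen with earlier results of these data known. The alternatives were the likelihood ratio test, DESeq2 1.42.0, no TMM factors, no filter, lane as a covariate, a fit of just the groups compared, totals without the 10 highest genes, an adjusted p of 0.05, each calf left out and, after seeing the data, the 2 calves with the highest CD74 left out and values centred within the 3 treatments. Depth was 1163791 to 4202593 counts per calf.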

Additional observations from a re-analysis of the deposited data

Results flagged for a closer look

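In each group of 9 calves, the highest and lowest value of the members, listed genes, markers and member ratios was compared with its nearest neighbour, and 20 of the 108 groups had a gap beyond Dixon's limit for 9 values. Chance flags about 1 in 20 groups where values are normally distributed, which was not checked for CPM, and these groups share calves. In each case the highest calf stood apart. TRT12 calf 1 stood apart in CD74 (1155 CPM), BOLA-DRA (410.0 CPM), PSME1 (151 CPM), PSME2 (122 CPM), IRF1 (239.6 CPM), LOC783680 (1225 CPM), PTPRC (186 CPM) and LCP1 (179 CPM). TRT6 calf 6 stood apart in CD74 (1168 CPM), PTPRC (178 CPM) and LCP1 (173 CPM). TRT6 calf 2 stood apart in ERAP1 (157 CPM), PDIA3 (711 CPM) and CANX (938 CPM). The others were BOLA-DQA5 in TRT12 calf 4 (23.6 CPM), LOC783680 in TRT0 calf 8 (588 CPM), PTPRC in TRT0 calf 1 (129.8 CPM), and DES (2194 CPM), ACTG2 (3644 CPM) and CA2 (251 CPM) in TRT12 calf 7.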

How the results depend on the processing

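No paired analysis was possible because the calf numbers were given in record order and pair no calves between treatments. Parity, planned as a covariate, was not entered, since the labels used for grouping do not give it.

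No alternative brought a member past the adjusted threshold in any contrast, and the log2 fold change of TAPBP in TRT12 vs. TRT0 stayed between 0.28 and 0.36 over all alternatives run (adjusted p 0.183 to 0.663). DESeq2 called 38 genes in TRT12 vs. TRT0 and 2 in TRT12 vs. TRT6. The likelihood ratio test called 1 in TRT12 vs. TRT0, lane as a covariate 1 there and 1 in TRT6 vs. TRT0, no filter 1 in TRT12 vs. TRT6, and leaving out each calf 0 to 1 in TRT12 vs. TRT0 (1 without TRT0 calf 4). The cause was not tested. Genes at an unadjusted p under 0.05 split into 219 higher and 233 lower in TRT6 vs. TRT0 and 208 and 247 in TRT12 vs. TRT6, against 146 and 235, and 230 and 172, without TMM factors, and 276 and 216 in TRT12 vs. TRT6 without the 10 highest genes.

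The log2 fold changes of the class II members, near 0, changed sign. CD74 in TRT6 vs. TRT0 became -0.0059 without TMM factors, -0.00082 without a filter and -0.097 without the 2 calves highest in CD74, and BOLA-DRA in TRT12 vs. TRT0 became -0.065 without those calves. With each calf left out, CD74 ranged from -0.098 to 0.077 in TRT6 vs. TRT0, -0.165 to 0.037 in TRT12 vs. TRT0 and -0.172 to 0.063 in TRT12 vs. TRT6, and BOLA-DRA from -0.147 to 0.0067, -0.065 to 0.113 and -0.013 to 0.198. The extremes came from leaving out TRT6 calf 6, TRT12 calf 1 or TRT0 calf 8.

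Of the 3 member pairs, 1 to 2 had an adjusted p under 0.05 with each calf left out (TAPBP and CD74 were added without TRT12 calf 8) and 3 without TMM factors. Of the 9 marker pairs, 2 to 4 did with each calf left out, 2 without TMM factors and 1 without the 2 calves highest in CD74, where the r of TAPBP and PTPRC became -0.092, of CD74 and EPCAM 0.018 and of BOLA-DRA and EPCAM 0.300. With each calf left out, r ranged from -0.049 to 0.218 for TAPBP and PTPRC and from -0.138 to 0.166 for BOLA-DRA and EPCAM. The r of CD74 and BOLA-DRA stayed between 0.743 and 0.878 in every alternative. With the 10 highest genes left out of the totals, mean levels were 330.2, 1047 and 365 CPM for TAPBP, CD74 and BOLA-DRA. Genes near 1 CPM rest on 1 to 4 reads in a calf, a limit that none of the members comes near.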
